A study of Mus musculus with 18 samples.

Results

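The BCL2 family genes described here are 10 rows of the count table picked by symbol, out of 23420 rows in all: the anti-apoptotic genes Bcl2, Bcl2l1 and Mcl1, the effectors Bax and Bak1, and the BH3-only genes Bcl2l11, Pmaip1, Bbc3, Bid and Bad. All 10 passed the filter on low counts, as did 11762 genes of the whole table. They were measured by mRNA sequencing in NIH-3T3 cells, an immortalized mouse fibroblast line, either wild-type (WT) or with Nrf1 (gene Nfe2l1) knocked out with CRISPR/Cas9 (Nrf1-KO). Each line received DMSO, the vehicle, or 200 nM carfilzomib (CFZ), an irreversible inhibitor of the proteasome, for 6 h or 24 h, with 3 libraries in each of the 6 groups. The labels give no exposure time for DMSO, and they do not say whether the KO line is a single clone, so that an effect of the knockout and a trait of the line that carries it cannot be told apart. The study calls the libraries of a group biological replicates, and the labels say no more on how they were grown, so p-values measure the spread between these libraries.

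Library totals ran from 8333148 to 23917081 counts, with a median of 14419832, and the lowest count of any of the 10 genes in any library was 61. For each of the 18 libraries, the library most correlated with it came from its own group. Nfe2l1 itself stood at 437 to 457 CPM (counts scaled for library depth by the TMM method) in WT cells with DMSO and at 174 to 185 CPM in Nrf1-KO cells with DMSO. With CFZ it stood at 628 to 650 against 414 to 427 CPM at 6 h and at 555 to 580 against 201 to 210 CPM at 24 h, WT against KO, so the KO libraries were lower in each condition but not at 0. The counts do not tell transcripts cut by the edit from intact ones. All 8 fibroblast markers looked at were above 1 CPM on average, with a summed level of 8090 to 35670 CPM per library, and Col1a1 stood at a mean of 7613 CPM with DMSO and 873 CPM at 24 h in WT and at 5834 and 807 CPM in KO. Among markers of other cell types, Epcam and Cd3e were at 0 in every library, the 3 endothelial markers summed to 0.360 to 4.33 CPM and the leukocyte markers to 0.364 to 5.77 CPM. Epithelial markers summed to 57.8 to 151 CPM, mostly Krt14, at a mean of 142 CPM in WT and 58.7 CPM in KO with DMSO, with Cdh1 at 6.12 and 11.6 CPM. Ptprc, a leukocyte marker, was at 0 in every WT library and at group means of 0.891 to 1.22 CPM in KO. The part of these markers in the results was not tested.

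BCL2 family proteins control whether the outer mitochondrial membrane is breached in a stressed cell. The anti-apoptotic members hold the effectors BAX and BAK in check, and the BH3-only members are the stress sensors that bind the anti-apoptotic members or engage the effectors directly. Once the effectors open the membrane, cytochrome c escapes and caspases are activated. Several of these proteins, MCL1 and NOXA (the product of Pmaip1) among them, are short-lived and cleared by the proteasome, and in such cases a transcript level says little about the amount of protein when the proteasome is blocked. All comparisons here concern transcripts alone.

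Promoter windows of RefSeq starts were searched for motifs of factors known from the stress, survival and antioxidant pathways. Each window runs from 250 bases before to 50 bases after an annotated start (build GRCm38.p6). The 5 motifs were CARE (TGATGNAA, bound by ATF4 and CHOP-type dimers), CRE (TGACGTCA), ARE (TGACNNNGC, the kind of site that Nrf1 binds), FOXO (GTAAACA) and the E-box CACGTG, each read on both strands. Of 32851 windows of all genes, 3.97% held the CARE letters, 1.79% the CRE, 12.4% the ARE, 3.65% the FOXO and 7.15% the E-box letters. Among the windows of the BCL2 family genes that the table held, 1 of Bcl2l1 matched the ARE, 1 of Bcl2l11 and 1 of Bbc3 matched FOXO, and E-boxes lay in another window of Bbc3 and in that of Bax. The windows of Bcl2, Mcl1, Bid, Bad and Bak1 matched none of the 5. No window of Pmaip1 is reported here, so nothing is said on its motifs. Bcl2l1, Bcl2l11, Bbc3 and Bad had more than 1 window each, so a gene with a match cannot be set directly against these shares of single windows. A match is a description of letters and not a binding site.

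The 3 windows printed here are those with a FOXO or an ARE match, chosen after the matches were seen. Bcl2l11 and Bbc3 are shown because their transcripts differed most between the lines in how they answered CFZ for 24 h apart from Pmaip1, and Bcl2l1 because it is the anti-apoptotic gene with a window that matched. Capitals mark the motif match and everything else is in lower case, 5′ to 3′ along the gene's own strand.
Bcl2l11, chr2:128125788-128126087, plus strand, FOXO letters from position -227 relative to the start: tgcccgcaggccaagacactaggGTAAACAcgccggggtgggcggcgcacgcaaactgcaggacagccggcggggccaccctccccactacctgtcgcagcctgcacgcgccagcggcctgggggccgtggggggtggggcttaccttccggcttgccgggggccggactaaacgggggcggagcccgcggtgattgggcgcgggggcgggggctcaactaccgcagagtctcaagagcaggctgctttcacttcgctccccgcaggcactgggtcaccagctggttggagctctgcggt
Bbc3, chr7:16310011-16310310, plus strand, FOXO letters on the opposite strand from position -167: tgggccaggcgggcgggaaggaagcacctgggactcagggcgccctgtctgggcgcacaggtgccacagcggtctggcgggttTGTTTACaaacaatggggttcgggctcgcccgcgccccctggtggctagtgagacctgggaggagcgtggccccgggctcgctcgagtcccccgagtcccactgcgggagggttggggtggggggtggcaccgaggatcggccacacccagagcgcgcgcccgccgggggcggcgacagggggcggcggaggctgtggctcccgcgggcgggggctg
Bcl2l1, chr2:152828440-152828739, minus strand, ARE letters on the opposite strand from position -127: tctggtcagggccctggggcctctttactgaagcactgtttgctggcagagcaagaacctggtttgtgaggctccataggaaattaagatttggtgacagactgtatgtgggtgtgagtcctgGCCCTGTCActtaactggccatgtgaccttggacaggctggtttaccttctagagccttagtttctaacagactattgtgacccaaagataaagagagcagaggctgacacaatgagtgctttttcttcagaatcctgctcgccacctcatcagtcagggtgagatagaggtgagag

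With DMSO, the 10 transcripts were spread over a wide range of levels, compared here as CPM per kb of exon from GENCODE M21 (merged exons of each gene). In WT cells Bax stood at 50.5 ± 0.235 (SD, n = 3), Bak1 at 47.7 ± 0.329 and Mcl1 at 47.2 ± 0.559 CPM per kb. Bad, Bcl2l1 and Bbc3 followed at 12.3, 12.3 and 11.5 CPM per kb, and Bid stood at 7.57. Bcl2l11, Pmaip1 and Bcl2 were the lowest, at 2.56, 2.38 and 1.43 CPM per kb. In the KO cells with DMSO the same 3 genes led, with Bax at 54.6, Mcl1 at 43.3 and Bak1 at 38.8 CPM per kb, and Pmaip1 was the lowest at 1.62. After CFZ the order at the bottom changed, and Pmaip1 reached 9.99 CPM per kb at 6 h in WT and 14.3 in KO, above Bcl2l1 in each line (8.90 and 11.5 CPM per kb). A merged exon model counts bases that a given isoform may lack, so that these levels depend on the annotation.

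**Figure D1:**
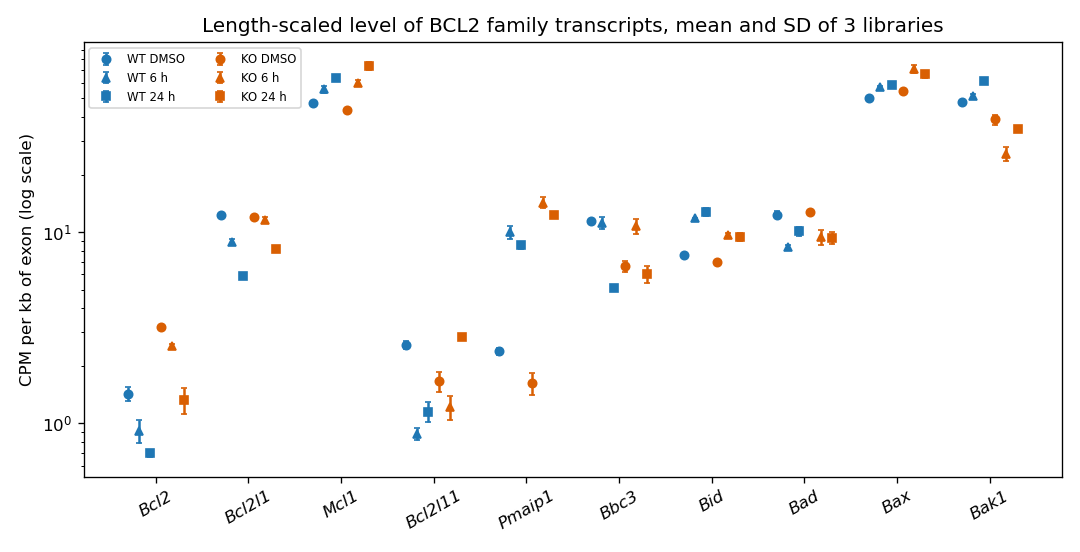
Level of the 10 BCL2 family transcripts in CPM per kb of exon (vertical log axis) in the 6 groups, blue for WT and orange for Nrf1-KO; circles are DMSO, triangles 6 h and squares 24 h of CFZ, with mean and SD of 3 libraries. Mcl1, Bax and Bak1 sit at the top in every group, and Pmaip1 moves from the lowest levels with DMSO (2.38 CPM per kb in WT, 1.62 in KO) to 9.99 and 14.3 at 6 h.

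The first comparison asks how the family answered proteasome inhibition in cells that can mount the Nrf1 response. After 6 h of CFZ in WT cells, 5 of the 10 genes were higher and 4 lower than with DMSO, by edgeR's quasi-likelihood test at an adjusted p under 0.05. Across all genes tested, 35.6% were called higher and 36.2% lower in that comparison, so a call by itself sets the family apart little. With library size alone or upper-quartile scaling 3 genes were higher in place of 5, Bax and Bak1 being lost. The median log2 change over the 10 genes was 0.04, against -0.02 over all genes tested. By the added rule of at least a 2-fold change in either direction, 2 of the 10 passed, Pmaip1 and Bcl2l11, where 9.63% of all genes did. At 24 h in WT cells 5 genes were higher (all genes 43.2%) and 5 lower (40.5%), and 5 passed the 2-fold rule (25%), namely Pmaip1 upwards and Bcl2, Bcl2l1, Bcl2l11 and Bbc3 downwards. The median absolute log2 change at 24 h was 0.89 over the 10 genes and 0.56 over all genes tested.

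In Nrf1-KO cells 5 genes were higher and 4 lower after 6 h of CFZ, where 34.5% and 35% of all genes were called. Pmaip1 alone passed the 2-fold rule, which 7.56% of all genes did. At 24 h 5 were again higher and 4 lower (44.4% and 41.1% of all genes), and 2 passed the 2-fold rule (26.7%), Pmaip1 upwards and Bcl2 downwards. With upper-quartile scaling or library size alone, Bcl2l1 was also called lower in KO at 6 h and Bbc3 at 24 h. The 6 h and 24 h comparisons of a line share its DMSO libraries and are not independent of each other.

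**Figure D2:**
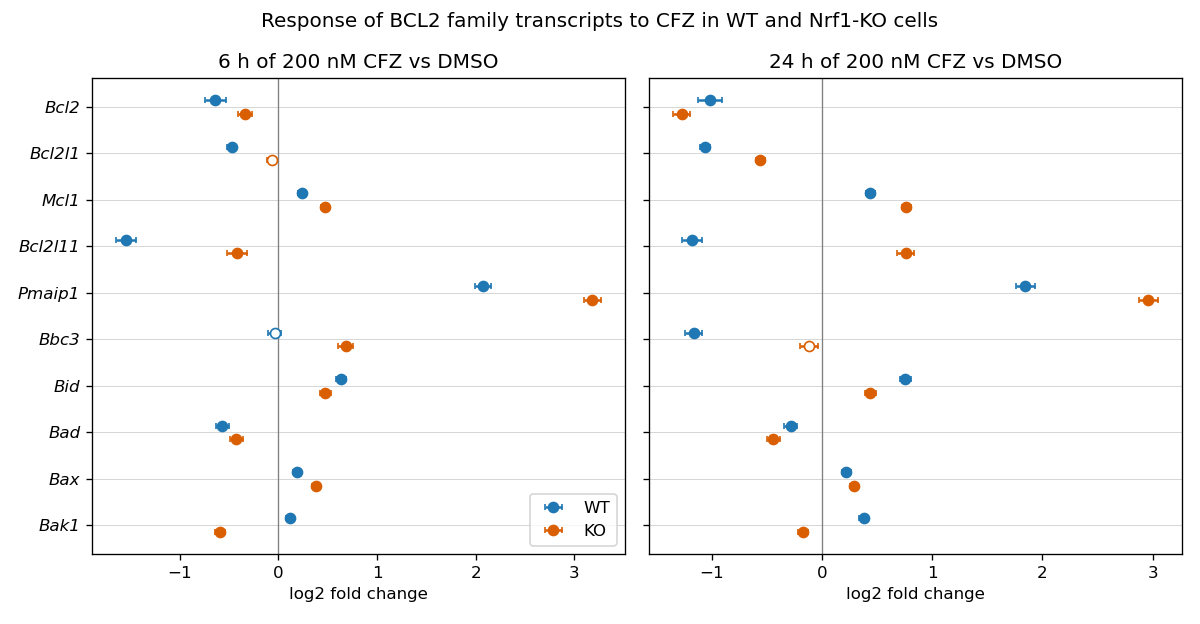
Change of each of the 10 transcripts with CFZ against DMSO of the same line (horizontal axis, log2 fold change with its standard error) at 6 h (left) and 24 h (right), blue for WT and orange for Nrf1-KO; open circles did not pass an adjusted p under 0.05. Pmaip1 lies farthest to the right in both lines, at 2.07 in WT and 3.18 in KO at 6 h, and Bcl2l11 at 24 h lies on opposite sides of 0, at -1.18 in WT and 0.76 in KO.

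Among the anti-apoptotic genes, Bcl2 and Bcl2l1 fell with CFZ while Mcl1 rose. Bcl2, the founding member of the family, was at 13.03, 12.05 and 14.12 CPM in the 3 WT libraries with DMSO, at 8.42, 9.47 and 7.23 CPM after 6 h and at 6.201, 6.716 and 6.26 CPM after 24 h. In KO cells it was at 30.1, 28.7 and 28.7 CPM with DMSO, at 23.3, 22.5 and 23.5 CPM after 6 h and at 14.37, 11.1 and 10.97 CPM after 24 h. The KO libraries lay above the WT libraries of the same treatment throughout, and within each line every CFZ library lay below every DMSO library. In WT Bcl2 fell by 0.64 on the log2 scale at 6 h (SE 0.104, adjusted p = 2.36e-06 by edgeR's quasi-likelihood test) and by 1.02 at 24 h (SE 0.109, adjusted p = 3.91e-10). In KO it fell by 0.34 at 6 h (SE 0.0733) and by 1.27 at 24 h (SE 0.0777, adjusted p = 5.07e-16). The lines also differed before treatment: with DMSO Bcl2 was 2.23-fold higher in KO (log2 1.16, SE 0.0751, adjusted p = 2.85e-14), at 6 h 2.75-fold and at 24 h 1.87-fold higher.

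Bcl2l1, which encodes BCL-XL, was at 56.9, 56.4 and 56.4 CPM in WT with DMSO and at 53.4, 55.3 and 56.4 CPM in KO, and these levels overlapped. After 6 h it stood at 41.2, 39.2 and 42.1 CPM in WT but at 50.7, 53.9 and 53.8 CPM in KO. After 24 h it stood at 27.4, 26.8 and 27.2 CPM in WT and at 37.8, 37.1 and 37.5 CPM in KO. The WT libraries were thus below the KO libraries at both times with CFZ. The fall in WT was 0.47 on the log2 scale at 6 h (SE 0.0439, adjusted p = 4.05e-11) and 1.06 at 24 h (SE 0.047, adjusted p = 1.13e-19). In KO the log2 change was -0.07 at 6 h (SE 0.043, adjusted p = 0.169) and the gene fell by 0.56 at 24 h (SE 0.0429, adjusted p = 1.58e-13). The 6 h value in KO depended on the scaling and was called lower under both other scalings, at -0.14 by the upper quartile and -0.18 by library size alone. The difference between the lines in the response, tested as an interaction of line and CFZ, was 0.40 at 6 h (SE 0.0616, adjusted p = 3.31e-06) and 0.50 at 24 h (SE 0.0644, adjusted p = 5.8e-08).

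Mcl1, a short-lived guardian that NOXA binds selectively, was the most abundant of the 3. It stood at 162, 159 and 163 CPM in WT with DMSO, at 197, 193 and 182 CPM after 6 h and at 223, 223 and 212 CPM after 24 h. In KO it stood at 148, 146 and 150 CPM, then 214, 200 and 203 CPM, then 252, 240 and 265 CPM. Each step was upwards without overlap within a line. The rise was 1.18-fold and 1.36-fold in WT at 6 h and 24 h (log2 0.24 and 0.44, SE 0.0387 and 0.0383) and 1.39-fold and 1.70-fold in KO (log2 0.47 and 0.77, SE 0.0391 and 0.0377). With DMSO it was slightly lower in KO (log2 -0.12, SE 0.0385, adjusted p = 0.00789), a call that was lost with library size alone (-0.08, adjusted p = 0.0951) and without replicate 1 of WT with DMSO (-0.10, adjusted p = 0.0523). The rise was larger in KO by 0.23 at 6 h (SE 0.055, adjusted p = 0.00111) and by 0.33 at 24 h (SE 0.0537, adjusted p = 4.65e-06).

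**Figure D3:**
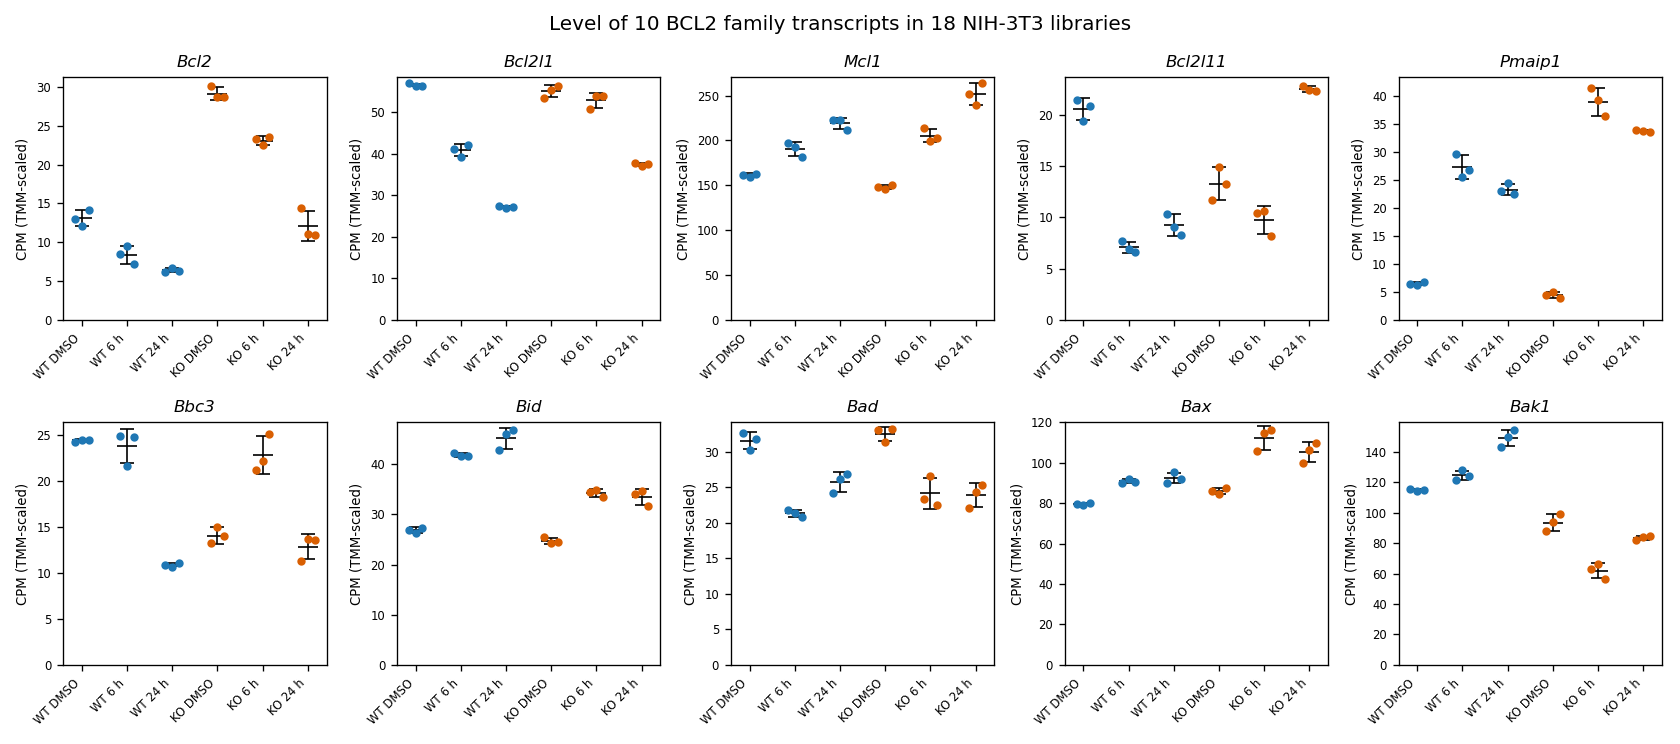
Level in CPM (TMM-scaled, vertical axes from 0, one scale per gene) of the 10 transcripts in each of the 18 libraries, blue for WT and orange for Nrf1-KO, by treatment along the horizontal axis; points are libraries, bars the mean and SD of 3. Bcl2l11 falls from a mean of 20.6 to 9.24 CPM at 24 h in WT and rises from 13.3 to 22.6 CPM in KO, and Bak1 rises from 115 to 149 CPM in WT while all KO libraries lie between 56.5 and 98.9 CPM.

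Of the effector genes Bax and Bak1, whose products form the pores, Bax rose in both lines and Bak1 moved in opposite directions. Bax was at 79.3, 79.3 and 80.0 CPM in WT with DMSO, at 90.0, 92.0 and 90.4 CPM after 6 h and at 90.2, 95.3 and 92.1 CPM after 24 h. In KO it was at 86.1, 84.4 and 87.4 CPM, then 106, 115 and 116 CPM, then 99.9, 106 and 110 CPM. CFZ libraries lay above DMSO libraries in each line, and KO libraries above WT libraries of the same treatment. The rise was small in WT (log2 0.19 at 6 h, SE 0.0413, and 0.22 at 24 h, SE 0.041) and somewhat larger in KO (0.38 at 6 h, SE 0.0405, and 0.29 at 24 h, SE 0.0391). The WT calls of Bax rested on the scaling: with upper-quartile scaling the adjusted p was 0.077 at 6 h and 0.0633 at 24 h, and with library size alone it was 0.193 at 6 h. The interaction of Bax was 0.19 at 6 h (SE 0.0578, adjusted p = 0.0106), which was lost without replicate 1 (adjusted p = 0.0613) or replicate 3 (adjusted p = 0.0548) of WT at 6 h, and 0.07 at 24 h (SE 0.0567, adjusted p = 0.303).

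Bak1 rose in WT and fell in KO. It stood at 116, 114 and 115 CPM in WT with DMSO, at 122, 128 and 124 CPM after 6 h and at 143, 150 and 154 CPM after 24 h. In KO it stood at 87.8, 93.7 and 98.9 CPM with DMSO, at 62.7, 66.2 and 56.5 CPM after 6 h and at 81.8, 84.0 and 84.5 CPM after 24 h. Every KO library was below every WT library. In WT it rose by 24 h (log2 0.38, SE 0.0416, adjusted p = 7.03e-10), and its 6 h value of 0.12 (SE 0.0425, adjusted p = 0.015) was not called by DESeq2 (0.09, adjusted p = 0.0774), with upper-quartile scaling (0.0082, adjusted p = 0.874), without the expression filter (adjusted p = 0.0649) or without replicate 2 of WT at 6 h (adjusted p = 0.0566), and turned to -0.015 with library size alone. In KO it fell by 0.59 at 6 h (SE 0.0484, adjusted p = 2.56e-12) and lay below DMSO at 24 h (log2 -0.17, SE 0.0442, adjusted p = 0.000797). Bak1 was lower in KO with DMSO (log2 -0.29, SE 0.0424), at 6 h (log2 -0.9995, SE 0.0484, adjusted p = 8.83e-18) and at 24 h (log2 -0.84, SE 0.0434, adjusted p = 2.02e-17). At 6 h the interaction was -0.71 with an SE of 0.0645 (adjusted p = 1.76e-10). At 24 h it was -0.55 with an SE of 0.0607 (adjusted p = 3.17e-09).

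The BH3-only genes carried the largest changes. Bcl2l11, which encodes BIM, a binder of all the anti-apoptotic members and a gene known to be switched by FOXO factors and growth factor signals, was at 21.4, 19.4 and 20.9 CPM in WT with DMSO. It stood at 7.66, 6.92 and 6.63 CPM after 6 h and at 10.4, 9.11 and 8.24 CPM after 24 h. In KO it was at 11.75, 14.96 and 13.23 CPM with DMSO, at 10.4, 10.7 and 8.15 CPM after 6 h and at 22.9, 22.5 and 22.3 CPM after 24 h. So the WT libraries dropped and stayed low, whereas the KO libraries started lower, dipped and ended above all other groups. In WT the level fell by 1.54 on the log2 scale at 6 h, to 0.343 of the DMSO level (SE 0.0974, adjusted p = 3.61e-15), and by 1.18 at 24 h (SE 0.0908, adjusted p = 1.91e-13). In KO it fell by 0.42 at 6 h (SE 0.1, adjusted p = 0.000469) and rose by 0.76 at 24 h, or 1.69-fold (SE 0.0781, adjusted p = 1.67e-10). The line difference in response was 1.12 at 6 h (SE 0.145, adjusted p = 1.91e-07) and 1.94 at 24 h, a 3.84-fold difference (SE 0.12, adjusted p = 6.02e-15). The level itself was lower in KO with DMSO (log2 -0.63, SE 0.0784) and higher in KO at 6 h (0.49, SE 0.122) and 24 h (1.31, SE 0.0903, adjusted p = 2.99e-14). Here and below, bulk libraries do not tell a change in each cell from a change in which cells remained, as fewer cells of a kind and less RNA per cell cannot be told apart.

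Pmaip1, whose product NOXA pairs mainly with MCL1 and which is a known target of p53 and of ATF4, rose the most of the family. It was at 6.39, 6.26 and 6.83 CPM in WT with DMSO, at 29.6, 25.5 and 26.7 CPM after 6 h and at 23.0, 24.3 and 22.4 CPM after 24 h. In KO it was at 4.46, 4.96 and 3.82 CPM, then 41.3, 39.2 and 36.3 CPM, then 33.8, 33.8 and 33.6 CPM. The KO libraries began below WT and ended above it, with no overlap at any time. The rise was 4.21-fold at 6 h and 3.59-fold at 24 h in WT (log2 2.07 and 1.85, SE 0.0847 and 0.0867, adjusted p = 5.13e-20 at 6 h) and 9.07-fold and 7.80-fold in KO (log2 3.18 and 2.96, SE 0.0858 and 0.0843, adjusted p = 1.04e-24 at 6 h). In both lines the 24 h level was below the 6 h level (log2 -0.23 in WT, adjusted p = 0.00371, and -0.22 in KO, adjusted p = 0.00154). The interaction was 1.11 at 6 h (SE 0.135, adjusted p = 6.26e-08) and 1.12 at 24 h (SE 0.135, adjusted p = 1.8e-08). The level was lower in KO with DMSO (log2 -0.58, SE 0.119, adjusted p = 0.000104) and higher in KO by 0.52 at 6 h and 0.53 at 24 h (SE 0.064 and 0.0636).

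Bbc3, which encodes PUMA, a classical target of p53 that binds every anti-apoptotic member, changed at different times in the 2 lines. It was at 24.2, 24.4 and 24.5 CPM in WT with DMSO, at 24.9, 21.6 and 24.8 CPM after 6 h and at 10.88, 10.67 and 11.03 CPM after 24 h. In KO it was at 13.2, 14.96 and 13.96 CPM, then 21.2, 22.1 and 25.1 CPM, then 11.3, 13.6 and 13.6 CPM. WT cells thus held their level at 6 h within overlapping libraries and lost it by 24 h, whereas KO cells started low, reached the WT range at 6 h and returned. In WT the log2 change was -0.04 at 6 h (SE 0.069, adjusted p = 0.64), a value that turned to 0.03 without replicate 2 of WT at 6 h and was called lower with library size alone (-0.17, adjusted p = 0.0291). At 24 h Bbc3 fell by 1.17 in WT (SE 0.0805, adjusted p = 1.3e-14). In KO it rose by 0.68 at 6 h, or 1.60-fold (SE 0.0786, adjusted p = 4.76e-09). At 24 h the KO value was -0.12 (SE 0.0823, adjusted p = 0.169), and it was called lower with upper-quartile scaling (-0.23), with library size alone (-0.30) or without replicate 2 of KO at 24 h (-0.21). The interaction was 0.72 at 6 h (SE 0.104, adjusted p = 1.5e-06) and 1.04 at 24 h (SE 0.117, adjusted p = 4.03e-09). With DMSO the gene was 1.74-fold lower in KO (log2 -0.80, SE 0.0714, adjusted p = 5.49e-11).

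Bid, whose product is cut by caspase-8 and links death receptors to mitochondria, rose in both lines. It was at 26.3 to 27.4 CPM in WT with DMSO, 41.6 to 42.2 CPM after 6 h and 42.8 to 46.7 CPM after 24 h, and in KO at 24.4 to 25.4, 33.4 to 34.9 and 31.6 to 34.6 CPM. The rise was 1.56-fold and 1.69-fold in WT at 6 h and 24 h (log2 0.64 and 0.76, SE 0.0509 and 0.0498) and 1.39-fold and 1.35-fold in KO (log2 0.48 and 0.44, SE 0.0546 and 0.0514). The response was smaller in KO at 24 h (interaction -0.32, SE 0.0718, adjusted p = 0.000301), and the 6 h interaction of -0.16 was not called (SE 0.0746, adjusted p = 0.0866). That 6 h call passed without any 1 of the 3 KO libraries at 24 h (adjusted p 0.0391 to 0.0473).

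Bad, a BH3-only member held inactive by survival kinases, fell with CFZ in both lines, with no interaction called. In WT it was at 30.3 to 32.7 CPM with DMSO, 20.8 to 21.8 CPM after 6 h and 24.2 to 27.0 CPM after 24 h, and in KO at 31.4 to 33.2, 22.5 to 26.6 and 22.0 to 25.4 CPM. It fell by 0.57 at 6 h and 0.28 at 24 h in WT (SE 0.0643 and 0.0611) and by 0.42 and 0.44 in KO (SE 0.0638 and 0.0594). The interactions were 0.14 at 6 h (SE 0.0915, adjusted p = 0.233) and -0.16 at 24 h (SE 0.0856, adjusted p = 0.112), the latter called with library size alone (-0.24, adjusted p = 0.017).

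Position bears on some of these counts. In GENCODE M21 (GRCm38), Bid (6:120891930-120916853, minus strand) shares 17.7% of its exonic bases with Bcl2l13 on the other strand, Bad (19:6941861-6951899, plus strand) shares 20.5% with Gpr137, and Bak1 (17:27019810-27029009, minus strand) shares 25.5% with Ggnbp1. Bcl2 (1:106538178-106714274, minus strand) shares 6.09% with D630008O14Rik on the other strand and Bax (7:45461697-45466898, minus strand) 12.2% with Gm45808 on its own strand, neither of which was in the table under that name. Bcl2l1 (2:152780668-152831728, minus strand), Mcl1 (3:95658788-95663176, plus strand), Bcl2l11 (2:128126038-128162547, plus strand) and Bbc3 (7:16308393-16318205, plus strand) shared no exonic bases with another gene. Whether the counting used strand is not given in the sources used here. Ggnbp1 held 3 to 18 reads per library, 0.220 to 0.913 CPM, beside 56.5 CPM or more for Bak1. Bcl2l13 held 67.6 to 96.4 CPM, more than Bid, and its own response was lower in KO by an interaction of -0.17 after 6 h (adjusted p = 0.0187) and of -0.27 after 24 h (adjusted p = 0.000112), beside -0.16 and -0.32 for Bid. Its change with CFZ was 0.08 and 0.10 in WT and -0.09 and -0.17 in KO at 6 h and 24 h, beside 0.64, 0.76, 0.48 and 0.44 for Bid. Gpr137 held 12.2 to 21.2 CPM and its change with CFZ at 6 h was -0.57 in WT and -0.30 in KO, beside -0.57 and -0.42 for Bad, and at 24 h -0.49 and -0.36, beside -0.28 and -0.44. The part of Bcl2l13 in the counts of Bid and of Gpr137 in those of Bad was not tested.

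With DMSO, the comparison of the lines asks what the loss of Nrf1 went with before any drug. Higher in KO were 2 of the 10 genes, Bcl2 and Bax, and lower were 5, namely Mcl1, Bcl2l11, Pmaip1, Bbc3 and Bak1, where 25.7% and 29.1% of all genes were called. Bcl2l1 (log2 -0.04, SE 0.0397, adjusted p = 0.47), Bid (-0.12, SE 0.0528, adjusted p = 0.0561) and Bad (0.05, SE 0.0556, adjusted p = 0.512) were not called. Of the 5 BH3-only genes, 3 were lower in KO, and Bid and Bad were the ones not called. The call of Bax (log2 0.11, SE 0.0401, adjusted p = 0.0164) was lost without replicate 3 of KO with DMSO (0.10, adjusted p = 0.0713).

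With CFZ the direction turned for several genes. At 6 h 7 of the 10 were higher in KO than in WT (30.5% of all genes) and 2 lower (30.8%), and at 24 h the counts were again 7 (35.6%) and 2 (36.4%). With 1 library left out, the higher genes numbered 5 to 7 at 6 h and 6 to 7 at 24 h. The 2 lower genes were Bid and Bak1 at both times. Mcl1, Bcl2l11 and Pmaip1 were lower in KO with DMSO and higher at 6 h and 24 h. Bbc3 was lower with DMSO and higher at 24 h (log2 0.25, SE 0.0922, adjusted p = 0.0168), a call lost without replicate 2 of either line at 24 h (adjusted p = 0.0588 without the WT library and 0.0703 without the KO library). Mcl1 at 6 h (0.11, SE 0.0392, adjusted p = 0.0181) was lost without replicate 3 of WT (0.07, adjusted p = 0.191) or replicate 1 of KO (0.08, adjusted p = 0.14). Bad was higher in KO at 6 h (0.19, SE 0.0727, adjusted p = 0.026), a call lost without replicate 2 (adjusted p = 0.0607) or 3 (adjusted p = 0.0959) of WT or replicate 2 of KO (adjusted p = 0.255), and its value at 24 h was -0.11 (SE 0.0651, adjusted p = 0.121, or -0.14 and 0.0479 with library size alone).

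The interaction of line and CFZ asks directly whether the 2 lines answered differently. Among all 11762 genes tested it was called for 4502 at 6 h and for 7030 at 24 h. At 6 h it was called for 7 of the 10 genes, with 6 higher in KO (19.8% of all genes) and 1 lower (18.4%). With 1 library left out, the 6 h interaction was higher for 5 to 7 genes and lower for 1 to 2. At 24 h it was called for 7, with 5 higher (29.7%) and 2 lower (30%), or 4 lower with library size alone, which added Bcl2 and Bad. The median interaction over the 10 genes was 0.27 at 6 h and 0.20 at 24 h, against 0.02 and 0.005 over all genes tested. Bcl2l1, Mcl1, Bcl2l11, Pmaip1 and Bbc3 responded more positively in KO at both times, Bak1 more negatively at both, Bax more positively at 6 h and Bid more negatively at 24 h. Bcl2 and Bad were not called at either time. The values of Bcl2 were 0.30 at 6 h (SE 0.128, adjusted p = 0.0632) and -0.25 at 24 h (SE 0.139, adjusted p = 0.119). Its 6 h interaction was called with upper-quartile scaling (adjusted p = 0.0346), library size alone (0.0472), a fit of the compared groups only (0.0413), or without replicate 2 of WT with DMSO (0.0381) or of WT at 6 h (0.0358), and its 24 h interaction with library size alone (-0.33, adjusted p = 0.0408) or without replicate 1 of KO at 24 h (-0.38, adjusted p = 0.0138). The interactions at 6 h and 24 h share the DMSO libraries of both lines.

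Ratios between partners put these changes on one scale within each library, free of library scaling, and are given as descriptions with no test. They compare transcript levels, each set to 0 at the mean of WT with DMSO on the log2 scale. The ratio of Bax to Bak1 stayed near its starting point in WT, at 0.08 ± 0.0191 (SD, n = 3) at 6 h and -0.16 ± 0.0476 at 24 h, whereas in KO it was 0.41 with DMSO, 1.39 at 6 h and 0.86 at 24 h. Mcl1 gained on Bcl2l1 in both lines, reaching 0.71 ± 0.0999 and 1.502 ± 0.0459 in WT and 0.45 ± 0.101 and 1.24 ± 0.0638 in KO at 6 h and 24 h. Mcl1 lost ground to Pmaip1 in both lines, to -1.83 and -1.40 in WT and -2.24 and -1.73 in KO, the last from a start of 0.44. The ratio of Bcl2l1 to Bcl2l11 was higher in KO with DMSO, at 0.60 with libraries at 0.43 to 0.73 against -0.05 to 0.08 in WT. It reached 1.07 in WT and 0.99 in KO at 6 h, where the libraries overlapped, and at 24 h the order was turned round, with WT libraries at -0.06 to 0.26 and KO libraries at -0.74 to -0.71.

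**Figure D4:**
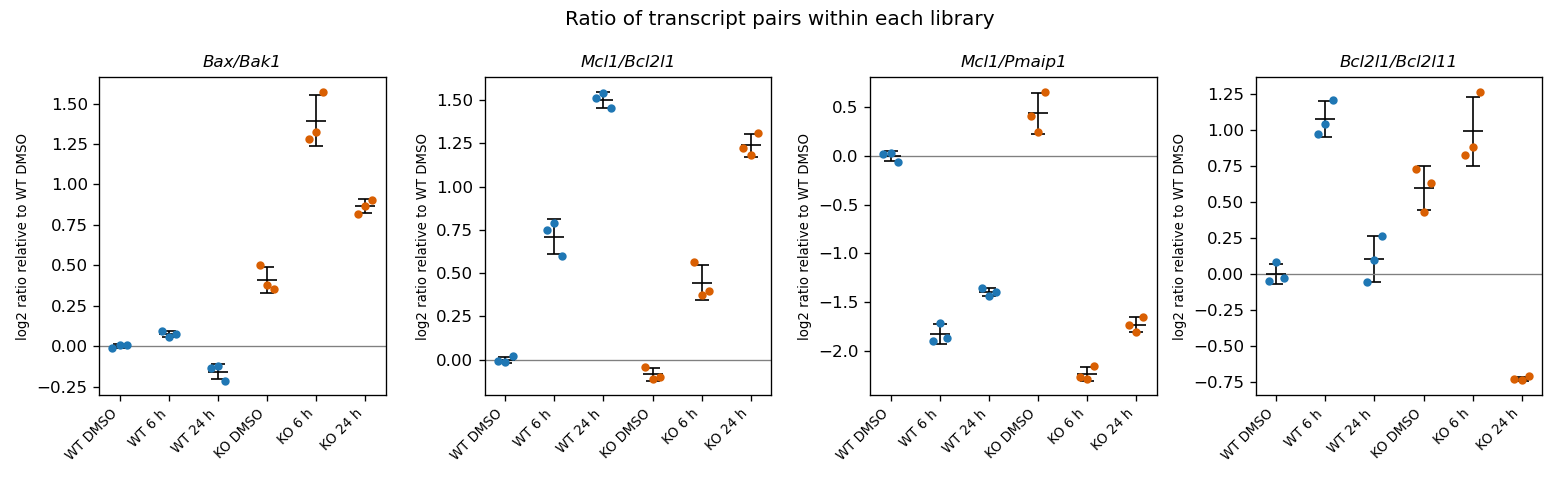
Log2 ratio of transcript pairs within each library relative to the mean of WT with DMSO (vertical axes, one scale per pair), blue for WT and orange for Nrf1-KO, points for libraries, bars for the mean and SD of 3. The ratio of Bax to Bak1 is highest in KO at 6 h, at a mean of 1.39, and the ratio of Bcl2l1 to Bcl2l11 at 24 h is 0.10 in WT and -0.73 in KO.

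Of 10 further family genes, 3 passed the filter, namely Bmf, Bok and Bcl2l2. Bmf, a BH3-only gene tied to the cytoskeleton and to histone deacetylase inhibition, went down in both lines. It was at 32.2, 29.64 and 29.97 CPM in WT with DMSO, at 3.11, 2.98 and 3.01 CPM after 6 h and at 0.813, 0.600 and 0.868 CPM after 24 h. In KO it was at 15.17, 15.02 and 14.34 CPM, then 1.83, 2.01 and 2.64 CPM, then 2.18, 2.61 and 1.84 CPM. In WT Bmf fell by 3.33 on the log2 scale at 6 h and fell by 5.34 at 24 h, and in KO it fell by 2.82 and fell by 2.72. The fall was smaller in KO at 24 h (interaction 2.61, SE 0.244, adjusted p = 9.36e-11), and the 6 h interaction was 0.52 (SE 0.208, adjusted p = 0.054). The WT libraries at 24 h held 8 to 14 reads of Bmf, so the size of that fall rests on few counts.

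Bok, an effector relative of Bax and Bak1 whose protein is kept low by the proteasome, was at a mean of 35.8 CPM in WT with DMSO, 29.6 at 6 h and 47.9 at 24 h. In KO it was at 36.6, 42.0 and 80.2 CPM. The KO libraries at 24 h, at 76.8, 79.3 and 84.4 CPM, lay above all others. The log2 change was -0.27 and 0.42 in WT and 0.20 and 1.13 in KO, and the interaction was 0.47 at 6 h (SE 0.0771, adjusted p = 1.03e-05) and 0.71 at 24 h (SE 0.0683, adjusted p = 1.75e-10). Bcl2l2, which encodes the anti-apoptotic BCL-W, moved less, from 37.9 to 49.2 CPM at 24 h in WT and from 37.0 to 53.0 CPM in KO (interaction 0.24 at 6 h, SE 0.0821, adjusted p = 0.0222, and 0.15 at 24 h, SE 0.0763, adjusted p = 0.0926). With library size alone, neither Bok nor Bcl2l2 was called higher in KO at 6 h. Bcl2a1a, Bcl2a1b, Bcl2a1c, Bcl2a1d and Hrk were at 0 in every library. Bcl2l10 had reads in the WT 24 h group only, at most 0.203 CPM, and Bik had 2 to 9 reads in each of the 6 WT libraries with CFZ and 0 in the other 12.

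**Figure D5:**
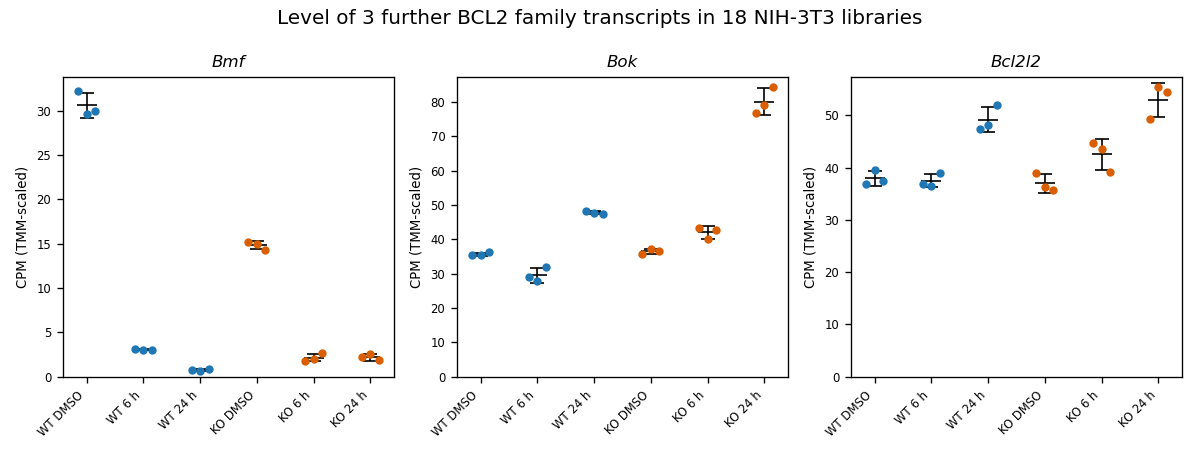
Level in CPM (vertical axes from 0) of Bmf, Bok and Bcl2l2 in each of the 18 libraries, blue for WT and orange for Nrf1-KO, with bars for the mean and SD of 3. Bmf falls from a mean of 30.6 CPM to 0.760 at 24 h in WT and from 14.8 to 2.21 CPM in KO, and Bok reaches 80.2 CPM in KO at 24 h.

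Downstream of the family, 9 genes of the mitochondrial pathway were all tested. In WT 3 were higher and 3 lower at 6 h (35.6% and 36.2% of all genes), and 5 and 3 at 24 h (43.2% and 40.5%). In KO 3 were higher and 5 lower at 6 h (34.5% and 35% of all genes) and 4 and 4 at 24 h (44.4% and 41.1%), so most of these counts lay near the shares of all genes. The higher calls among them moved with the settings: at 6 h in WT only 1 stood by DESeq2, with upper-quartile scaling or with library size alone, at 24 h in WT 2 and 3 under those scalings and 3 without replicate 1 of WT with DMSO, and at 24 h in KO 1 with library size alone. Changes of 2-fold or more were limited to Endog in WT and Htra2 in KO, each at 24 h. Htra2, a mitochondrial protease released with cytochrome c, was at a mean of 64.4 CPM with DMSO and 53.1 CPM at 24 h in WT, and at 82.7 and 29.4 CPM in KO, a fall there of 1.49 (SE 0.0479, interaction -1.22, adjusted p = 3.75e-16). Endog, a mitochondrial nuclease, went from 4.55 to 1.68 CPM in WT (fell by 1.44, SE 0.206) and from 3.38 to 2.05 CPM in KO (fell by 0.72, SE 0.199).

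Among 9 transcription factors known to act on family genes, 8 were tested. In WT 6 were higher and 1 lower at 6 h (35.6% and 36.2% of all genes) and 6 and 2 at 24 h (43.2% and 40.5%), and in KO 6 and 2 at 6 h (34.5% and 35%) and 5 and 2 at 24 h (44.4% and 41.1%). The lower calls numbered 2 at 6 h in WT under both other scalings, 1 at 24 h in WT without replicate 2 of that group and 1 at 6 h in KO without replicate 1 of that group. Atf3, a stress-induced partner of CHOP, was at a mean of 7.97 CPM in WT with DMSO, 149 at 6 h and 136 at 24 h, and at 3.08, 213 and 441 CPM in KO. Ddit3, which encodes CHOP, was at 48.9, 124 and 135 CPM in WT and at 32.9, 179 and 321 CPM in KO. Both rose further in KO, with interactions of 1.88 and 3.07 for Atf3 and of 1.10 and 1.81 for Ddit3 at 6 h and 24 h (SE 0.138, 0.137, 0.0668 and 0.065). Myc was at 51.6, 119 and 75.8 CPM in WT and at 65.0, 170 and 73.4 CPM in KO, with interactions of 0.19 at 6 h (SE 0.0727, adjusted p = 0.0361) and -0.37 at 24 h (SE 0.0764, adjusted p = 0.000122). Of 7 genes in the table that act on family proteins, such as ubiquitin ligases and binding partners, 5 were higher in WT at 6 h and at 24 h (35.6% and 43.2% of all genes) and 4 in KO at 6 h and at 24 h (34.5% and 44.4%), at most 1 was lower in each comparison, and none changed 2-fold in any comparison of CFZ with DMSO. With library size alone the higher calls in KO numbered 2 at both times, and with upper-quartile scaling 2 at 6 h. The lower calls numbered up to 2 under other settings.

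Some genes outside the family had profiles close to its members over the 18 libraries. For each member whose group means spanned at least 1 on the log2 scale, the closest genes by Pearson's r of log2 CPM were found, as a description without a p, since libraries of 1 group share their treatment. Pmaip1, with the widest span, was closest to Foxj3 (r = 0.994) and Rnd1 (0.987), and Bcl2l1 to Gabpb2 (0.990) and Rnf150 (0.989). Bcl2 was closest to Il1rap (0.986) and Hlf (0.978), and Bak1 to D8Ertd738e (0.973) and Gapdh (0.965). Bbc3 was closest to Dlc1 (0.964) and Irx3 (0.962), and Bcl2l11 to S1pr1 and Ddah2 (0.951 each). Within the family, Mcl1 and Pmaip1 had r = 0.871 and Bcl2 and Bcl2l1 r = 0.796 over the same libraries, while Bad and Pmaip1 had r = -0.88.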

How the data were processed

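The 18 libraries (3 in each of 6 groups, taken from the titles) were made with a stranded mRNA kit and sequenced as paired reads of 125 bases. Per the submitters' processing notes, the authors aligned them with STAR and compared them with DESeq2. The deposited table holds their whole-number counts per gene symbol, not normalized. The genome build, the annotation and the use of strand are not given in the sources used here.

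From these counts, library totals (8333148 to 23917081) were scaled by TMM in edgeR 4.0.16 (R 4.3.3), genes were kept by filterByExpr (minimum count 10, minimum total 15), and 1 quasi-likelihood model of all 6 groups gave the 9 comparisons of groups and the 2 interactions, with Benjamini-Hochberg adjustment over 11762 genes and a threshold of 0.05. The deposited file had 0 columns that could not be tied to a sample, and 27 rows carried date-like names in place of symbols, so that 1 listed gene (March5) was not found. CPM are TMM-scaled. The standard error is the log2 change over the square root of the F statistic.

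Named are the 10 members, the tested genes of the further family list, up to 3 genes per other list with at least a 2-fold change, and the 2 genes most like each member whose group means spanned at least 1. Members and lists were chosen with earlier results of these data known. Alternatives were DESeq2 1.42.0, upper-quartile scaling, library size alone, other filters, the compared groups only, a replicate block, and each library left out. The model was tested on simulated counts. No pair of libraries of a group agreed within sampling noise (chi-square per degree of freedom 1.44 to 8.47). Where no build is stated for the counts, positions come from GENCODE M21 and promoter windows from RefSeq, matched by symbol.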

Additional observations from a re-analysis of the deposited data

Results flagged for a closer look

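The genes here were flagged because the 2 lines answered CFZ differently by the interaction term of edgeR's quasi-likelihood test. Of the 11762 genes tested, 4502 had such a call at 6 h and 7030 at 24 h, so a call alone sets a gene apart little. Groups of 3 libraries were too small for a check of single outlying libraries. At 24 h the response of Bcl2l11 was more positive in KO by 1.94 on the log2 scale (adjusted p = 6.02e-15), with the 2 lines moving in opposite directions. Pmaip1 rose more in KO by 1.12 at 24 h and by 1.11 at 6 h. Bbc3 differed by 1.04 at 24 h and 0.72 at 6 h, and Bcl2l11 by 1.12 at 6 h. For Bcl2l1 the values were 0.50 at 24 h and 0.40 at 6 h, and for Mcl1 0.33 and 0.23. Bax differed by 0.19 at 6 h, a call lost without replicate 1 (adjusted p = 0.0613) or replicate 3 (adjusted p = 0.0548) of WT at 6 h. Bak1 was more negative in KO, by -0.55 at 24 h and -0.71 at 6 h, and Bid by -0.32 at 24 h.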

How the results depend on the processing

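Over 25 alternatives, 110 results of the 10 genes (11 comparisons each) gave 2750 values, of which 2678 kept direction and side of the threshold, 42 lost significance, 18 gained it and 12 changed sign, the last in 6 results. With library size alone, Bak1 at 6 h in WT was -0.015, Bcl2l1 in KO against WT with DMSO 0.012 and the 24 h interaction of Bax -0.0087. Leaving out 1 library moved Bax between 24 h and 6 h in WT over -0.018 to 0.045, Bbc3 at 6 h in WT over -0.062 to 0.034 and Bad between 24 h and 6 h in KO over -0.073 to 0.06. Library size alone and upper-quartile scaling moved the median of all genes by -0.07 to -0.18 in the comparisons of CFZ with DMSO, and under each of them 3 of the 10 genes were higher at 6 h in WT in place of 5; with library size alone the genes with a lower interaction at 24 h numbered 4 in place of 2. Leaving out 1 library gave 3 to 5 genes higher in WT at 24 h against 6 h, 1 to 2 higher in KO with DMSO and 1 to 2 with a lower interaction at 6 h. The same step gave 5 to 7 genes higher in KO than in WT at 6 h, 6 to 7 at 24 h, and 5 to 7 with a higher interaction at 6 h. A replicate block changed no count of the 10 genes. It gave 4650 genes of the table with an interaction at 6 h (main 4502) and 7140 at 24 h (main 7030). Same-numbered libraries of different groups had a mean correlation of 0.02 (range -0.06 to 0.14) in their deviations from group means. For libraries with different numbers the mean was -0.01. A mean over all genes cannot decide whether the numbers pair the samples, as a shared shift in some genes would move it little. Counting limits the rarest transcripts, with as few as 61 reads.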
